A study of Mus musculus with 6 samples.

Results

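The GTPases of the immunity-associated protein family (Gimap) are encoded in the mouse by a tight cluster of genes on chromosome 6. Its 8 members, Gimap1, Gimap3, Gimap4, Gimap5, Gimap6, Gimap7, Gimap8 and Gimap9, were chosen by gene symbol among the 15442 genes of the deposited table, and all 8 passed the filter on low counts that left 11140 genes for testing. Gimap proteins share a GTP-binding domain, sit on membranes such as those of lysosomes, the endoplasmic reticulum and mitochondria, and are made mainly by lymphocytes, where several members govern survival. Mice that lack Gimap5 lose T cells and develop inflammation and liver disease, and Gimap1 is needed to keep mature T and B cells alive.

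RNA sequencing was carried out on liver cells sorted by flow cytometry for green fluorescence in Foxp3-GFP mice, whose green signal marks cells that make Foxp3, the defining transcription factor of suppressive regulatory T cells (Treg cells). One group of 3 libraries came from mice with a model of autoimmune hepatitis (AIH, immune attack on the liver) and the other group of 3 came from control mice. All 6 libraries shared the reporter, the tissue and the low-input SMART-Seq2 protocol, while how the model was induced, the age of the mice, and how many cells or animals went into a library are not stated in the sources. Whether each library is a separate animal is also not stated, and the p-values therefore speak to the spread among these 6 samples, which may be technical.

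Library totals ran from 17780509 to 24572388 counted reads. Foxp3, on which the cells were sorted, had 4.95, 91.5 and 31.5 reads in AIH 1 to AIH 3 against 418, 274 and 1002 in Control 1 to Control 3. These reads were few for cells gated on Foxp3-GFP, and the reason was not tested. The first group is therefore called the libraries labelled AIH. The summed level of 15 T cell genes was 9050 to 11800 CPM (counts scaled to the size of the library) in the libraries labelled AIH and 4640 to 7160 CPM in the controls. The log2 fold change was positive for 11 of the 15 and negative for 4. Their mean log2 CPM overlapped between the groups, at 8.025 in AIH 1 and 8.145 in Control 1. Over 15 macrophage genes the sum was 490 to 2800 against 3750 to 16300 CPM, with a negative log2 fold change for all 15, while for B cells it was 37.6 to 118 against 161 to 411 CPM, with a negative log2 fold change for all 5 tested and 5 below the filter. Endothelial cells also make Gimap transcripts, and their 10 marker genes summed to 5.97 to 44.2 against 75.4 to 231 CPM, with a negative log2 fold change for all 6 tested and 4 below the filter. The sums overlapped for CD8 T and natural killer (NK) cells at 1100 to 2310 against 517 to 1620 CPM, for hepatocytes at 507 to 2420 against 698 to 2350 CPM and for neutrophils at 12.1 to 34.3 against 12.4 to 23.8 CPM. Within the CD8 T and NK list, Cd8a, a chain of the CD8 coreceptor, had 2237, 1031 and 2709 reads against 248, 296 and 688, so its groups were apart, with a log2 fold change of 2.53 (SE 0.57), an unadjusted p of 0.00144 and an adjusted p of 0.317 by edgeR's quasi-likelihood test. Gzma, a granule protease of cytotoxic lymphocytes, had a log2 difference of 1.33 (SE 0.43) and an unadjusted p of 0.012 in that test, with overlapping groups. Cd8b1, the other chain of the coreceptor, had one of 0.96 (SE 0.53), also with overlapping groups. Of the 9 genes of the list that were tested, 7 had a positive log2 fold change and 2 a negative one. The groups were apart for Cd8a alone. The part of CD8 T cells in the levels of the Gimap genes was not tested. No marker of these lists that the table holds was at 0 in all 6 libraries. In sorted cells counted in bulk, more cells of a type and more RNA per cell cannot be told apart.

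All 8 Gimap genes had a higher mean level in the libraries labelled AIH than in the controls, with folds from 1.25 for Gimap8 to 3.22 for Gimap7. For 6 of them, Gimap1, Gimap3, Gimap4, Gimap6, Gimap7 and Gimap9, the lowest AIH library exceeded the highest control in CPM, as it did for 8.46% of the genes tested. With library totals alone 5 of the 8 were apart, and in the authors' TPM 4 were, and the share of all genes was not counted on these scales. An unadjusted p under 0.05 with a higher level was found for 5 of the 8, Gimap1, Gimap4, Gimap6, Gimap7 and Gimap9. Among the genes tested, 4.42% had such a p with a higher level and 3.85% with a lower one. After Benjamini-Hochberg adjustment of the p-values of edgeR's quasi-likelihood test over all genes, none of the 8 passed 0.05, which 0.0808% of genes did in this direction. The median log2 fold change over the 8 members was 0.74, and over all genes tested it was −0.0412, with 48.1% of genes above 0 and 51.9% below. These counts describe 8 neighbouring genes and are not 8 independent observations.

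**Figure D1:**
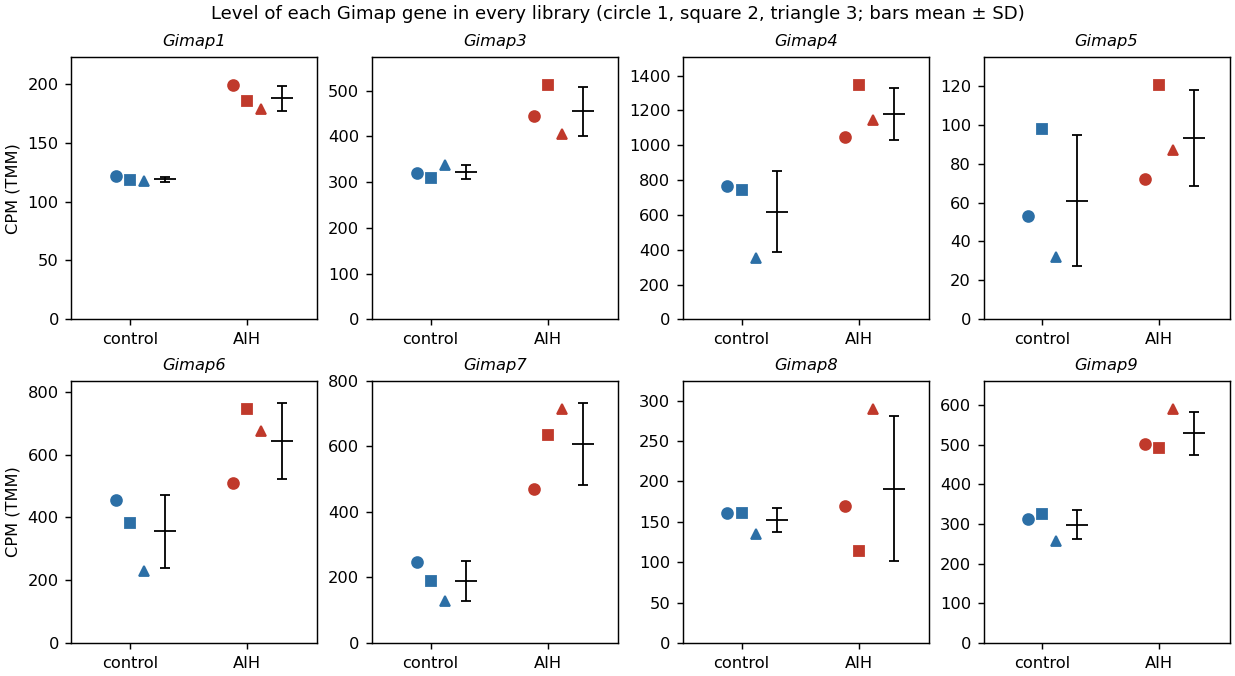
Level of each Gimap gene in CPM (counts scaled by library totals with TMM factors) in the 3 control libraries and the 3 libraries labelled AIH, with circle, square and triangle for libraries 1, 2 and 3 and bars for the mean ± SD. The groups are apart for 6 genes and overlap for Gimap5 and Gimap8.

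Promoter sequences are shown for 3 genes, for Gimap7 as the gene with the largest difference, for Gimap4 as the most abundant member and for Gimap6 as a gene that also stood higher but held none of the motifs searched. Each is the 250 bases before the RefSeq transcript start in build GRCm38.p6, with matches to 4 motifs in capitals.
Gimap7 (chr6:48718371-48718620, + strand): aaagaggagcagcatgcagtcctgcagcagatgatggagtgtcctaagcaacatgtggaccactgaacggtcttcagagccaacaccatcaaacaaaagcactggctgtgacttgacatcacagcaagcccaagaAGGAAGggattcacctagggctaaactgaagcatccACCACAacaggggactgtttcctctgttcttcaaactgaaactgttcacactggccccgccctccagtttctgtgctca
Gimap4 (chr6:48684328-48684577, + strand): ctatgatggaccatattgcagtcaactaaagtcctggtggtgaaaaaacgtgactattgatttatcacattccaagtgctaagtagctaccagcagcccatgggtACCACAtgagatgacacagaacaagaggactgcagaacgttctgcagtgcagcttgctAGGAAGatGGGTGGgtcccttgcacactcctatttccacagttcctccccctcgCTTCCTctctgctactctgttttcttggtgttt
Gimap6 (chr6:48708245-48708494, − strand): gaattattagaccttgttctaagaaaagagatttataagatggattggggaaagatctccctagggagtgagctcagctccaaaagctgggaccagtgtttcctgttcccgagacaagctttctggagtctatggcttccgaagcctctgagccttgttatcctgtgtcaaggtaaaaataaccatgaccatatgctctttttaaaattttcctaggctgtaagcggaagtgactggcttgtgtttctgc
The motifs were CCACCC for Krüppel-like factors (KLF), AGGAAG for the ETS family, TGTGGT for RUNX factors and TGTTTAC for forkhead factors, each searched on both strands. No motif holds another whole, and matches of different motifs may share bases. Other forms of these sites were not searched, so a window without the exact letters may still hold a site of the same family. In the 250 bases before the start, AGGAAG was found for 7 of the 8 members, all but Gimap6, and in 29.5% of 32817 RefSeq promoters. CCACCC was found for 5 members, Gimap3, Gimap4, Gimap5, Gimap8 and Gimap9, and in 28.1% of promoters. TGTGGT was found for 3, Gimap1, Gimap4 and Gimap7, and in 14.0%, and TGTTTAC for 1, Gimap3, and in 3.16%. Gimap8 has 2 annotated starts, and its matches lie before the downstream one. Counted per promoter, as the shares of all promoters are, AGGAAG was found in 7 of the 9 member promoters, CCACCC in 5, TGTGGT in 3 and TGTTTAC in 1.

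Gimap7 showed the largest difference of the family. Human GIMAP7 hydrolyses GTP as a dimer. Gimap7 was counted at 469, 633 and 715 CPM in AIH 1 to AIH 3, and at 248, 190.1 and 127 CPM in Control 1, Control 2 and Control 3. The lowest of the 3 libraries labelled AIH stood far above the highest control. This gave a log2 fold change of 1.69 (SE 0.32), with an unadjusted p of 0.000446, the 24th smallest of 11140 genes, and a Benjamini-Hochberg adjusted p of 0.207 (edgeR, quasi-likelihood). Over 16 alternative settings the log2 fold change lay between 1.40 and 1.94, and Gimap7 was called in 2 of them, with an adjusted p of 0.044 without the filter on low counts, where 0.156% of genes were called higher, and of 0.000199 by DESeq2's Wald test, where 0.879% were. By limma-voom the adjusted p was 0.0501, and over all 16 it ran from 0.000199 to 0.999 (macrophage covariate). Against the mean log2 CPM of the other 7 members, Gimap7 stood at 0.586, 0.856 and 0.976 in the libraries labelled AIH and at 0.0948, −0.367 and −0.392 in the controls. It was the 1 member of the family whose groups were apart on that scale, a difference that was not tested.

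Gimap4, a regulator of T cell death, was the most abundant member per transcript length in all 6 libraries. Its level was 742, 1024 and 882 TPM (abundance scaled for transcript length and library depth) in AIH 1, AIH 2 and AIH 3, and 591, 658 and 404 TPM in the controls. In CPM it stood at 1049, 1345 and 1144 against 764, 742 and 352, so all 3 libraries labelled AIH lay above the controls and Control 3 lay lowest. Its log2 fold change came to 0.93 (SE 0.32), with an unadjusted p of 0.0174 and an adjusted p of 0.496 by edgeR's quasi-likelihood test. Without Control 3 it was 0.65.

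Gimap6 binds the autophagy protein GABARAPL2 and takes part in autophagy of T cells. It was counted at 511, 746 and 677 CPM in the libraries labelled AIH and at 455, 383 and 228 CPM in Control 1, Control 2 and Control 3. The groups were apart by a small margin, between AIH 1 and Control 1, and in TPM they overlapped, with 258 in AIH 1 and 280 in Control 1. The log2 fold change of 0.86 (SE 0.31) had an unadjusted p of 0.0216 and an adjusted p of 0.513 by edgeR's quasi-likelihood test.

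Gimap9 was counted at 503, 492 and 591 CPM in the libraries labelled AIH and at 313, 326 and 257 CPM in the controls. The 3 libraries of a group were close to each other, with a coefficient of variation of 10.3 and 12.2%, and the groups were well apart. Its log2 fold change was 0.82 (SE 0.24), with an unadjusted p of 0.0077 and an adjusted p of 0.427 by edgeR's quasi-likelihood test.

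Gimap1, which maintains mature T and B cells, had the most even levels within groups. It stood at 199, 185 and 178 CPM in the libraries labelled AIH and at 121, 118 and 117 CPM in the controls, with a coefficient of variation of 5.53 and 1.73%. Every library labelled AIH was above every control. Its log2 fold change was 0.66 (SE 0.27), with an unadjusted p of 0.036 and an adjusted p of 0.566 by edgeR's quasi-likelihood test. Over the 6 fits that left out 1 library the log2 fold change stayed between 0.61 and 0.68.

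Gimap8, the largest member, which carries several GTPase domains, did not separate the groups. It was counted at 169, 114 and 290.01 CPM in the libraries labelled AIH and at 160.4, 161 and 135 CPM in the controls. AIH 3 was the highest of the 6 libraries and AIH 2 the lowest. Its log2 fold change came to 0.33 (SE 0.37, approximate 95% interval −0.50 to 1.15), and without AIH 3 it turned to −0.12. By edgeR's quasi-likelihood test the adjusted p came to 0.901.

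Gimap3 and Gimap5 are close relatives. Gimap5 lies on lysosomes and is required for the survival of T cells, and mouse Gimap3 is known for its effect on the segregation of mitochondrial DNA in leukocytes. Their coding sequences, 903 and 924 bases long in GENCODE M21 (GRCm38), were identical at 90.7% of aligned bases, and 22.2% of the 50-base windows of Gimap3 occurred unchanged in Gimap5. No other pair of the family shared a 50-base window. The longest run without a difference spanned 140 bases, and it is shown with 20 bases on either side because a read from it cannot be given to 1 of the 2 genes by its sequence. Capitals mark the bases that differ, and the stretch runs from coding base 155 to 334 of Gimap3 and from 167 to 346 of Gimap5.
Gimap3: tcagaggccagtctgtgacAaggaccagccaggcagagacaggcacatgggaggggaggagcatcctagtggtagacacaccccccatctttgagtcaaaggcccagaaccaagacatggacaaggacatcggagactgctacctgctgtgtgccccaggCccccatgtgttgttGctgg
Gimap5: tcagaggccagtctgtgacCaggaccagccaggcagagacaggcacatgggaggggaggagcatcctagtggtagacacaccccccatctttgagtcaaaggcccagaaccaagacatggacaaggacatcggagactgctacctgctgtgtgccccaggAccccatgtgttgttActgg
The deposited counts of both genes held fractions of reads in 4 of 6 libraries, and the sum of the 2 genes was a whole number in all 6 (tolerance 0.005 reads). Counts of Gimap4, Gimap6, Gimap7 and Gimap9 were whole in all 6 libraries, whereas those of Gimap1 were whole in 0 and those of Gimap8 in 1.

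The level of Gimap3 was 445, 512 and 406 CPM in the libraries labelled AIH and 320, 308 and 338 CPM in the controls. The groups were apart in CPM and overlapped in TPM, where Control 3 at 173 lay above AIH 1 and AIH 3 at 164 each. The log2 fold change was 0.50 (SE 0.24, approximate 95% interval −0.0391 to 1.03), with an adjusted p of 0.656 by edgeR's quasi-likelihood test. For Gimap5 the counts gave 72.1, 120.3 and 86.8 CPM against 53.2, 97.9 and 31.9 CPM, so Control 2 lay above AIH 1 and AIH 3. The log2 fold change of Gimap5 was 0.61 (SE 0.47, approximate 95% interval −0.45 to 1.66), with an adjusted p of 0.806. Without Control 2 it was 1.13 and without Control 3 it was 0.30. With the reads of both genes summed, an alternative chosen after seeing the data, the pair stood at 517.5, 632 and 493 CPM against 373, 406 and 370 CPM. The groups were apart for the sum, and its log2 fold change was 0.52 (SE 0.24) with an unadjusted p of 0.0565 and an adjusted p of 0.624 by edgeR's quasi-likelihood test.

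**Figure D2:**
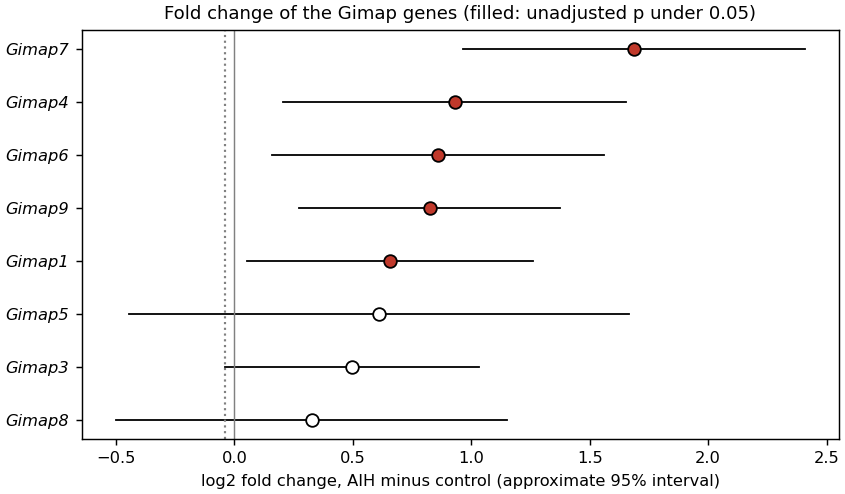
Log2 fold change of each Gimap gene, AIH minus control (points), with an approximate 95% interval (lines) from edgeR's quasi-likelihood test with 3 libraries per group. Filled points have an unadjusted p under 0.05, the dotted line is the median of all genes tested at −0.0412, and the intervals of Gimap3, Gimap5 and Gimap8 reach below 0.

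Per transcript length, the family summed to 1957, 2860 and 2556 TPM in AIH 1 to AIH 3 and to 1599, 1668 and 1224 TPM in Control 1 to Control 3. The groups were apart for the sum, with Control 3 lowest. By mean TPM over all 6 libraries the order was Gimap4, Gimap7, Gimap6, Gimap9, Gimap3, Gimap1, Gimap8 and Gimap5. Gimap4 was first and Gimap1 sixth in every library, while the place of Gimap7 depended on the group. It was second in all 3 libraries labelled AIH, at 312, 530 and 522 TPM, and lay below both Gimap6 and Gimap9 in every control, at 201, 166 and 118 TPM in Control 1 to Control 3. The places of Gimap6 and Gimap9 ran from 2 to 4 and those of Gimap3 from 3 to 5, and the levels of Gimap6 and Gimap9 overlapped within each group. The last 2 places were held by Gimap8 and Gimap5 in varying order. Gimap4 made up 36.1 ± 1.73% of the family's TPM in the libraries labelled AIH and 36.5 ± 3.24% in the controls (SD, n = 3 per group). The share of Gimap7 was 15.9, 18.5 and 20.4% under AIH against 12.6, 9.93 and 9.61% in the controls, with no overlap.

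**Figure D3:**
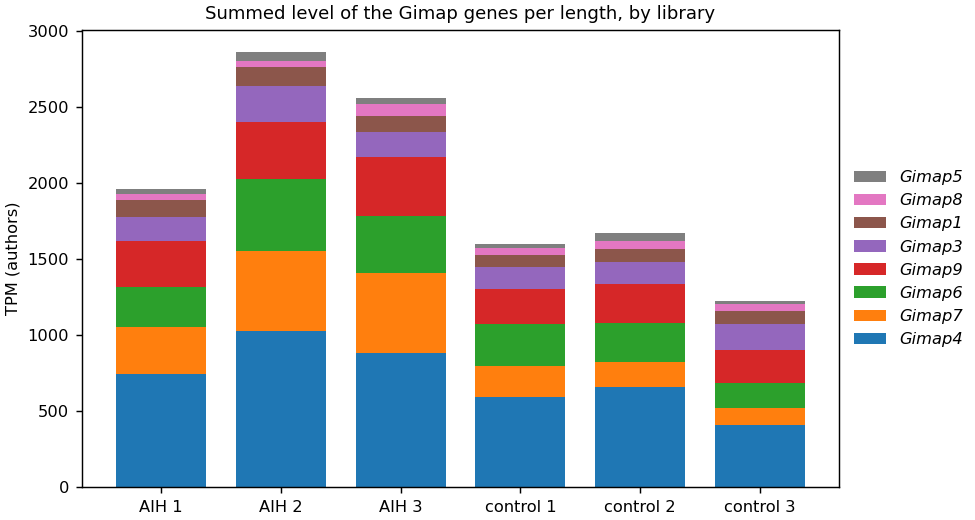
Summed level of the 8 Gimap genes in each library in TPM as the authors deposited it, stacked by gene with the most abundant at the bottom. The 3 libraries labelled AIH reach 1957 to 2860 TPM and the 3 controls 1224 to 1668 TPM.

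The deposited table of transcripts holds 16 RefSeq transcripts of the family, of which 13 passed the filter. For 11 of these 13 the log2 fold change was above 0, and the median over the 13 was 0.57. The groups did not overlap, with AIH higher, for 7 of them and for 6.33% of all 17999 transcripts tested. An unadjusted p under 0.05 was found for 5, all higher, and in this direction for 2.14% of transcripts. After adjustment of the p-values of edgeR's quasi-likelihood test none of the 13 passed, and 0% of all transcripts tested passed with a higher level. Gimap4 is split over 5 transcripts, and NM_001243201.1, with a log2 fold change of 0.95 (SE 0.29), was the 1 of them with an unadjusted p under 0.05, at 0.0139 and an adjusted p of 0.785. The transcript with the most Gimap4 reads, NM_174990.4, took 44.9, 65.5 and 45.8% of the gene's reads under AIH against 57.8, 47.2 and 10.6% in Control 1 to Control 3. Control 3 stood apart with the low share, and there NM_001243200.1 took 14.9% against 1.23 to 2.25% in the other 5 libraries. How surely reads could be assigned to a transcript was not taken into account.

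The level of the family was also set against the T cell genes of the same library. The mean log2 CPM of the 8 members minus that of the 15 T cell genes was 0.34, 0.015 and 0.51 in AIH 1 to AIH 3, against −0.28, −0.13 and −0.25 in Control 1 to Control 3. All 3 libraries labelled AIH lay above the controls, AIH 2 by the smallest margin. Gimap4, Gimap6 and Gimap7 were apart on this scale, and the other 5 members overlapped. The share of all genes that were apart on it was not counted. Among the 15 T cell genes the log2 fold change was above 0 for 11 and the median was 0.30, and none passed after adjustment. At an unadjusted p under 0.05, 4 of the 15 were higher and 1 lower, as were 4.42% and 3.85% of all genes tested. With the T cell mean as a covariate in the fit, the median over the Gimap members was 0.53 and 2 of them, Gimap7 and Gimap9, had an unadjusted p under 0.05. The macrophage mean in that place gave a median of 0.55, and Gimap7, at a log2 fold change of 1.67 (SE 0.50), was the 1 member with an unadjusted p under 0.05, while Gimap5 stood at 0.067. The share of all genes with such a p was not counted in either fit. Since no AIH library reached the lowest control in the macrophage mean, that covariate can take up part of any difference between the groups.

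**Figure D4:**
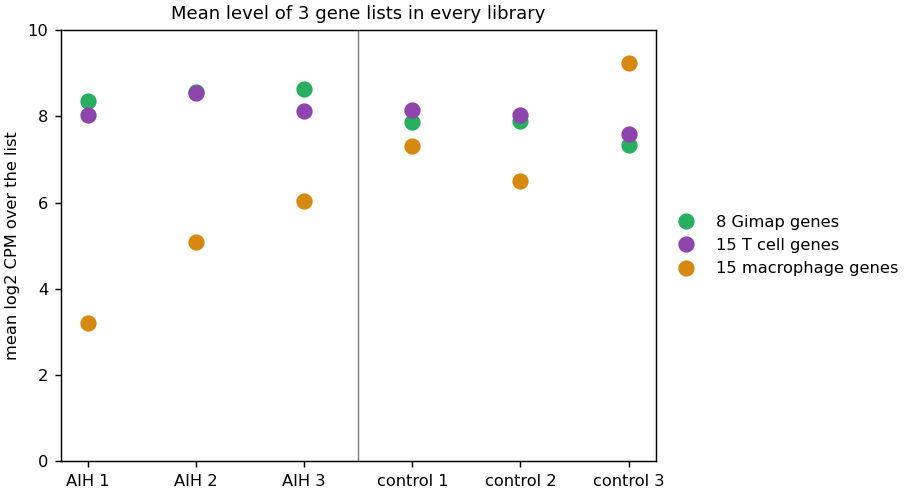
Mean log2 CPM over the 8 Gimap genes, 15 T cell genes and 15 macrophage genes in each library, with the libraries labelled AIH left of the line and the controls right of it. The Gimap mean exceeds the T cell mean in the 3 libraries labelled AIH and lies under it in the 3 controls, and the macrophage mean is highest in Control 3.

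Genes of resting and recirculating lymphocytes, the cells in which Gimap genes are best known, were of both signs, most of them negative. The log2 fold change was below 0 for 12 of 16 such genes, the median over the 16 was −1.10, and for 9 the highest AIH library lay under the lowest control, as it did for 8.87% of the genes tested. Klf2, a transcription factor of T cell quiescence, was the 1 gene of the list that fell after adjustment, where 0.00898% of all genes did, with 44.3 ± 4.45 CPM against 303 ± 62.4 CPM in controls (SD, n = 3 per group) and an adjusted p of 0.0281 by edgeR's quasi-likelihood test. Satb1, a chromatin organiser of T cells, stood at 34.0 ± 10.5 against 130.3 ± 65.0 CPM, and Ccr7, a receptor that leads T cells into lymph nodes, at 51.1 ± 24.3 against 170.2 ± 47.6 CPM. Btg1, an antiproliferative gene of resting T cells, was apart in the other direction, at 1507 ± 495 against 847 ± 108 CPM (SD, n = 3 per group), with a log2 fold change of 0.83 (SE 0.30), an unadjusted p of 0.0193 and an adjusted p of 0.502 by edgeR's quasi-likelihood test. The other 3 with a positive value, Tob1, Slfn2 and Il7r, stood at 0.61, 0.41 and 0.056 with overlapping groups. When any 1 library was left out, the log2 fold change of Klf2 lay between −2.88 and −2.59 with an adjusted p of 0.0745 to 0.157, so its call was lost. The call was lost too with the replicate block at −2.76, with the T cell covariate at −2.59, with the macrophage covariate at −2.37 and without AIH 1 and Control 3 together at −2.53, against −2.77 as reported.

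Genes of the Bcl2 family and of proteins that act with Gimap proteins showed no common direction. For 9 of 16 the log2 fold change was above 0, the median was 0.16, and none passed after adjustment. Bcl2a1b, of the anti-apoptotic Bcl2a1 family, stood at 711 ± 187 against 243 ± 72.4 CPM (SD, n = 3 per group), with an unadjusted p of 0.000668 and an adjusted p of 0.265 by edgeR's quasi-likelihood test, and its near-identical paralogs may share its reads. Nfatc1, a transcription factor downstream of T cell receptor signals, stood 0.66 higher on the log2 scale (SE 0.42), and Bcl2l11, which encodes the death factor Bim, had a difference of −1.80 (SE 1.17). Gabarapl2, the autophagy partner of Gimap6, stood at 370.1 ± 71.8 against 347 ± 51.3 CPM, a log2 fold change of 0.091 (SE 0.27). Gsk3b, a kinase tied to Gimap5 in T cells, stood 0.34 higher (SE 0.31).

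For the Treg genes listed, the log2 fold change was above 0 in 6 of 10 and the median was 0.41, and none passed after adjustment. Summed, the 10 genes stood at 4820 to 6210 CPM in the libraries labelled AIH and 1770 to 2530 CPM in the controls. Tnfrsf4 and Tnfrsf18, costimulatory receptor genes of Treg cells, had log2 fold changes of 2.60 (SE 0.45) and 1.92 (SE 0.36), and that of Foxp3 was −3.54 (SE 1.24). Their adjusted p-values were 0.148, 0.193 and 0.501 by edgeR's quasi-likelihood test, and the groups were apart for each.

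In RefSeq order the cluster runs Gimap8, Gimap9, Gimap4, Gimap6, Gimap7, Gimap1, Gimap5 and Gimap3, so Gimap7, with the largest difference, lies inside it and Gimap8, with the smallest, at one end. The genes next to the cluster did not share a direction. On the side of Gimap8, 4 of the 5 nearest protein-coding genes were tested. The log2 fold change was 0.12 (SE 2.27) for Zfp775, 2.27 (SE 1.17) for Repin1, 1.26 (SE 1.68) for Rarres2 and 0.071 (SE 1.28) for Lrrc61. For all but Repin1 the SE exceeded the log2 fold change. The groups were apart for Repin1 alone on this side, with 62.0 to 92.0 reads in the controls and 123 to 627 in the libraries labelled AIH. On the side of Gimap3, Tmem176b and Tmem176a, membrane protein genes of myeloid cells, stood at 39.8 ± 14.3 against 161 ± 98.7 CPM and at 15.9 ± 18.7 against 79.4 ± 70.3 CPM (SD, n = 3 per group). Their log2 fold changes were −2.02 (SE 0.51) and −2.32 (SE 1.26), with adjusted p-values of 0.349 and 0.693 by edgeR's quasi-likelihood test. The groups were apart for Tmem176b and overlapped for Tmem176a. Gm7932, Aoc1 and Doxl1, the other nearest genes on that side, were not among the genes counted. The macrophage genes were low in the same libraries in which Tmem176b was low, and their part in its level was not tested.

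Across the 6 libraries, the tested genes outside the family with the profile most like the mean log2 CPM of the 8 members were Snu13, Ccn4, Acot9, Cd53 and Cd3g, with Pearson's r of 0.995, 0.991, 0.990, 0.987 and 0.987. Cd53, a tetraspanin of leukocytes, stood at 4275 ± 357 against 2592 ± 328 CPM (SD, n = 3 per group), and Cd3g, a chain of the T cell receptor complex, at 3120 ± 113 against 1304 ± 446 CPM. Snu13, a component of the spliceosome and of small nucleolar ribonucleoproteins, stood at 488 ± 41.7 against 260 ± 69.9 CPM. The most opposite profiles were those of Gen1, Mis12 and Lamp1, with r of −0.986, −0.984 and −0.983. Lamp1, which encodes a lysosomal membrane protein, stood at 62.7 ± 6.09 against 186 ± 87.6 CPM. In all 8 of these genes the 2 groups were apart, so r is set largely by the difference between the groups, and it is given as a description of 6 libraries. Ccn4 and Gen1 were low, at 8.30 ± 3.66 against 1.07 ± 0.84 CPM and at 0.83 ± 0.39 against 5.35 ± 3.16 CPM. At such levels log2 CPM depends in part on the prior count of 2.

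**Figure D5:**
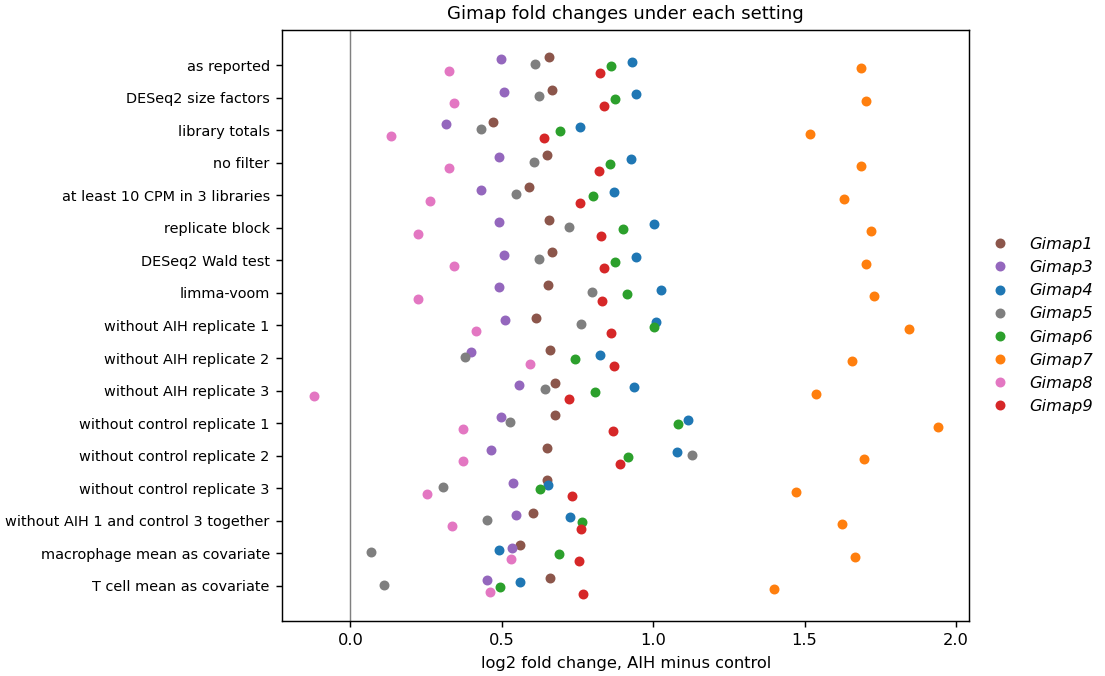
Log2 fold change of each Gimap gene, AIH minus control (points), as reported and under 16 alternative settings (vertical axis). Gimap7 lies at 1.40 to 1.94 under every setting shown, and the 1 point below 0 is Gimap8 at −0.12 without AIH 3.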

How the data were processed

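The authors deposited 1 table of genes and 1 of transcripts, and per the file headers each gives read counts and TPM for every library. The 24 other per-sample columns of the 2 tables, FPKM and normalized counts, were not used. The authors gave expected counts that are not normalized, and 14.8 to 16.7% of genes per library had a count that was not whole. The TPM values were corrected for length and depth by the authors, per the file headers. Per the submitters' processing notes, the tools include STAR, featureCounts and FastQC and the build is listed as GRCm39 or mm39, with no tool version. Which program split reads between features, and how it treated reads matching several genes, is not given in the sources used here, which bears on Gimap3 and Gimap5. Promoters come from RefSeq (GRCm38.p6), where all 8 members matched, and coding sequences from GENCODE M21.

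After rounding, the counts went into edgeR 4.0.16 (R 4.3.3) with TMM factors and its default expression filter by group (at least 10 reads, total at least 15). The quasi-likelihood model held group alone, and p-values were adjusted by Benjamini-Hochberg over 11140 genes (threshold 0.05). Dividing the size of a log2 fold change by the root of its F statistic gave its SE, and the 95% intervals are approximate. Biological variation had a coefficient of 0.948, on 4 residual and 5.45 prior degrees of freedom. Transcripts were fitted alike. Log2 CPM used a prior count of 2. The fit was tried on simulated counts that varied less than these data and held larger changes than those of the Gimap genes. That trial does not show how the fit performs on data as variable as these. Alternatives were other scalings and filters, each library left out, a replicate block, covariates, DESeq2 1.42.0 and voom in limma 3.58.1. Promoters were searched for exact motif letters, and coding sequences were aligned in pairs for identity.

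The members and lists were chosen with earlier results of these data known. Named were the 8 members, from the lists described the 3 genes with the smallest p, the 5 nearest protein-coding genes on each side of the cluster, and the 5 most and 3 least alike genes by correlation. Repin1, Cd8a, Cd8b1, Gzma, Btg1, Tob1, Slfn2 and Il7r were singled out, and Gabarapl2 and Gsk3b were named for their roles, after their values were seen.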

Additional observations from a re-analysis of the deposited data

How the results depend on the processing

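Over 16 alternatives the median log2 fold change of the Gimap members stayed positive, from 0.53 to 0.90, and each member but Gimap8 kept a positive sign throughout. With any 1 library left out Gimap8 ran from −0.12 (without AIH 3, a reversal) to 0.59. With library totals in place of TMM factors the median over all genes tested moved from −0.0412 to −0.23, and that of the members was 0.56. The count of members called was 1 (Gimap7) without the filter and 1 (Gimap7) by DESeq2, and 0 under the other 14. Members with an unadjusted p under 0.05 numbered 5, and 3 to 5 with any 1 library left out, with 3 without AIH 2, without AIH 3 or without Control 3; the macrophage covariate left 1 and the T cell covariate 2. Genes called over all tested numbered 10, and 3 with library totals, 32 without the filter, 180 by DESeq2, 21 by limma-voom, 1 without AIH 1 and Control 3 together, 0 with either covariate, and 0 to 1 with any 1 library left out. With the replicate block 0 genes were called and 4 members had an unadjusted p under 0.05. Under the alternatives, the share of all genes with such a p was not counted. By their labels the libraries share only a number. Deviations of same-numbered libraries correlated at 0.0132, 0.00134 and 0.19, and those of the other pairs at −0.122 to 0.108. Whether libraries of the same number share a batch, as the block assumes, cannot be told from so few values. The transcript NM_175860.2 of Gimap1, with few reads, moved from −0.039 to 4.86 with that block, the only reversal among member transcripts under the block or library totals; the cause was not tested. With 3 libraries per group, an exact permutation test of 1 gene cannot give a p below 0.1.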

Other observations

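The shares of the minor transcripts of Gimap8 and Gimap1 varied between libraries. Of the 4 Gimap8 transcripts, NM_001286629.1 took 90.4 to 100% of the gene's reads in 5 libraries and 76.1% in Control 2, where NM_001077410.1 took 23.9%, against at most 0.01 reads in any other library. NM_212486.2 took 9.57% in Control 1 and 0.834% in AIH 2 and was listed at 0 in the other 4 libraries. XM_006506079.3 took 1.71% in AIH 1 and 7.27% in AIH 3 and was listed at 0 in the other 4 libraries. For Gimap1, NM_175860.2 took 6.63% of the reads in Control 2, 0.407 to 2.97% in the libraries labelled AIH, and was listed at 0 in Control 1 and Control 3.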
